A study of Mus musculus with 6 samples.

Results

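The variable (V) gene segments of the antibody light chains were examined in RNA sequencing libraries of sorted mouse haematopoietic stem cells (HSCs). Members were the genes whose symbol starts with Igkv (kappa) or Iglv (lambda) and which GENCODE M21 does not annotate as pseudogenes. There were 103 of them, 100 Igkv and 3 Iglv, among the 49585 genes counted, and 60 annotated V pseudogenes were left out. The cells came from untreated C57BL/6 mice aged 8 to 16 weeks. They were sorted from bone marrow as negative for lineage markers, CD48 and CD34 and positive for Kit, Sca-1, CD150 and CD201, and were then divided by surface CD38 into a CD38-positive (high) and a CD38-negative (low) population. Each population had 3 libraries, each from the pooled cells of 10 mice, and the series' design text matches them into 3 pairs. Whether paired libraries came from 1 set of mice is not stated. The labels used here give no number of sorted cells.

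A light chain gene is assembled in developing B cells by joining 1 V segment to a short joining (J) segment, which is then spliced to a constant region, Igkc for kappa or an Iglc gene for lambda. A B lineage cell as a rule expresses a single functional light chain and passes its V gene on to its descendants. Cells of different descent can also share a V gene, so a V gene alone does not identify 1 line of cells. Plasma cells, the antibody-secreting end stage, hold very large amounts of this RNA. Stem cells have not rearranged these genes. The identity of the V genes in a bulk library, and how evenly they share the reads, therefore describe how concentrated its antibody RNA is.

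Most of the light chain V reads of these libraries came from very few genes, and almost every library had its own. Of 26429 member reads in the 6 libraries, 24460 (92.5%) fell on the 10 genes that reached 1000 or more reads in some library. A further 2 members peaked at 100 reads or more but under 1000, and 18 at 10 or more but under 100. Another 44 had reads but under 10 in every library, and 29 had no read in any. The germline reference sequences of the genes that took over 5% of the V reads of a library, with at least 10 reads there, follow because they are the identities on which the results turn. Each line gives the last 90 coding bases, in exon 2, read from the GENCODE M21 transcripts. The capitals mark the bases after the conserved cysteine codon that closes the third framework region. They are the germline start of the third complementarity-determining region (CDR3), the stretch of the V gene that meets the J segment.
Igkv12-46 (GRCm38 chr6:69764523-69764612, minus strand): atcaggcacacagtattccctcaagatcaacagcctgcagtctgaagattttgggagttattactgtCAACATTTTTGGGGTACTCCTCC
Igkv19-93 (GRCm38 chr6:68736297-68736386, minus strand): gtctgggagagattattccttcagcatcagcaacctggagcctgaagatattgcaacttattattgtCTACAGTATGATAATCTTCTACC
Igkv4-61 (GRCm38 chr6:69416893-69416982, minus strand): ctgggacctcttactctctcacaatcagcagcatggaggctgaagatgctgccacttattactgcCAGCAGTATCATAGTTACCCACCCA
Igkv3-2 (GRCm38 chr6:70698978-70699067, plus strand): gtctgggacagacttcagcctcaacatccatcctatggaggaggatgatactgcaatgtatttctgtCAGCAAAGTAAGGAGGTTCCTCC
Igkv14-126 (GRCm38 chr6:67896553-67896642, plus strand): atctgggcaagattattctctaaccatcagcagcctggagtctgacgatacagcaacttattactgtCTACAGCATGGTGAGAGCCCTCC
Igkv1-135 (GRCm38 chr6:67610419-67610508, plus strand): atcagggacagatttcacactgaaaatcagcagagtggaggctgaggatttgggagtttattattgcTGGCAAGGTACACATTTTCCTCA
Igkv6-17 (GRCm38 chr6:70371904-70371993, plus strand): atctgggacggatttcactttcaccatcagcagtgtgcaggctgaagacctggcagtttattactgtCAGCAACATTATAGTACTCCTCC
Igkv15-103 (GRCm38 chr6:68437836-68437925, plus strand): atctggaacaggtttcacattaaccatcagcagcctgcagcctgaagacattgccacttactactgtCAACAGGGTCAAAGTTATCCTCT
Igkv4-58 (GRCm38 chr6:69500254-69500343, minus strand): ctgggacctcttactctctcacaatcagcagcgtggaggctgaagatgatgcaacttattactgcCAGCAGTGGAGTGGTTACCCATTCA
Igkv4-80 (GRCm38 chr6:69016558-69016647, minus strand): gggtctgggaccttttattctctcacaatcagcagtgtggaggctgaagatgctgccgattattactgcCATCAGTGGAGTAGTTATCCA
Iglv1 (GRCm38 chr16:19085017-19085106, minus strand): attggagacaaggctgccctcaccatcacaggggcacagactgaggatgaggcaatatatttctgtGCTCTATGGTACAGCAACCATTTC
Igkv10-96 (GRCm38 chr6:68631963-68632052, minus strand): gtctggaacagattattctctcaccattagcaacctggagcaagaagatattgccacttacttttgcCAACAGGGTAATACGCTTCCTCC
Igkv8-30 (GRCm38 chr6:70117061-70117150, minus strand): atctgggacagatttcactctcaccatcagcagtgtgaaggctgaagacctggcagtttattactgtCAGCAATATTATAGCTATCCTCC

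The cysteine codon was located by script as the last match, on the coding strand, to TANTNNTGT or TANTNNTGC, and 99 of the 103 members (96.1%) hold such a match in the last 90 bases of their longest transcript. The lines are reference sequence, since the deposited counts carry no read sequence; the joined and mutated forms present in the cells were not seen. The CDR3 starts differ from gene to gene. Among the leading genes, the 3 of the Igkv4 subgroup are the most alike: Igkv4-61 and Igkv4-80 have 92.0% identical bases over their aligned transcripts, Igkv4-58 and Igkv4-80 have 89.9%, and Igkv4-61 and Igkv4-58 have 89.8%. Near-identical copies make a count uncertain, and how the authors treated reads that map to several genes is not given in the sources used here. Of all stretches of 50 bases in Igkv4-61, 52.0% also occur in another light chain V gene or pseudogene, most often Igkv4-74. For Igkv19-93, Igkv14-126 and Igkv15-103 the share was 0%, and for the other leading genes it lay between 9.76% (Igkv12-46) and 37.5% (Igkv6-17). The 29 members with no read were not the ones with the most shared sequence, with a median of 18.1% against 25.0% for the 74 with reads.

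Summed over all members, light chain V reads numbered 3524, 116 and 1342 in CD38-positive replicates 1, 2 and 3. Their CD38-negative partners had 6341, 4995 and 10111. The populations did not overlap, and CD38-positive replicate 2 stood far below the other 5 libraries. Scaled to library size (CPM, with totals adjusted by edgeR's TMM factors), the mean was 97.1 ± 104 (SD, n = 3) for the CD38-positive population. For the CD38-negative it was 424 ± 175 (SD, n = 3). Within pairs 1, 2 and 3 it was 1.79-fold, 42.3-fold and 8.35-fold higher in the CD38-negative library. The mean paired log2 difference, CD38-positive minus CD38-negative, was -3.10 ± 2.28 (SD, n = 3 pairs), and -1.95 without pair 2. Of the 14785 genes tested, 3.17% were likewise lower in CD38-positive libraries without overlap, and 3.34% were higher. No test was run on the summed level, because the set was chosen with earlier results of these data known. In bulk RNA, fewer cells of a type and less RNA per cell cannot be told apart. The members took between 0.000675% and 0.0595% of all counts, so the differences concern a minute part of each library.

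**Figure D1:**
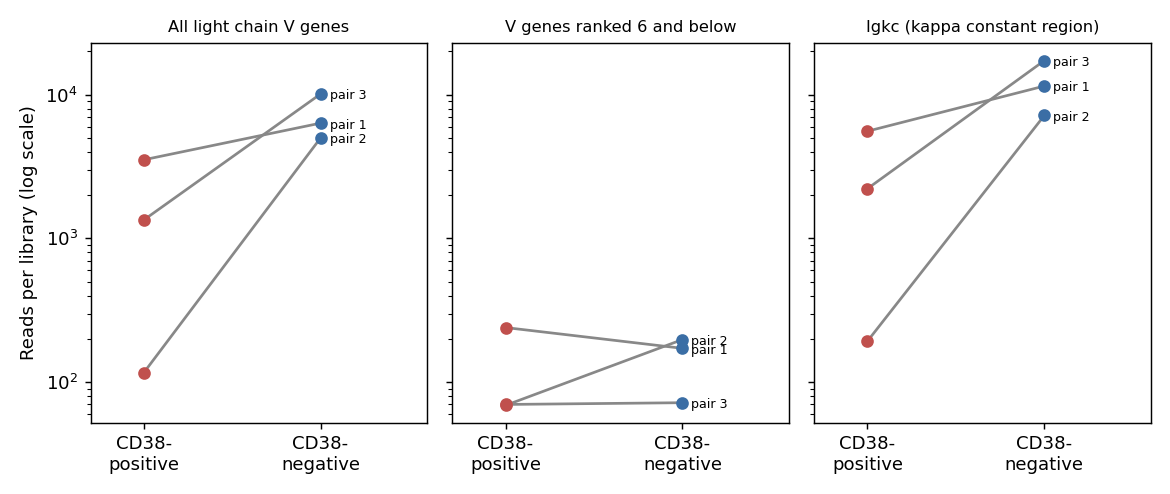
Reads per library on a log scale for all light chain V genes (left), for the V genes ranked 6 and below within each library (middle) and for Igkc (right); points are libraries, red CD38-positive and blue CD38-negative, and grey lines join the libraries of a pair. The full set and Igkc are higher in the CD38-negative library of every pair, whereas the lower-ranked V genes lie between 69 and 240 reads in every library.

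The lower ranks were also read on their own. With the 5 most abundant V genes of each library set aside, which are different genes from library to library, the remaining V genes kept 240, 69 and 70 reads in the CD38-positive libraries. They kept 172, 198 and 72 reads in the CD38-negative libraries. The populations overlapped, and the paired log2 differences of these remaining reads were 0.49, -1.49 and -0.19, against -0.84, -5.40 and -3.06 for all members. This division was chosen after the values were seen and is set by the same counts that make up the totals, so the smaller differences are a description only. Leaving out only the leading gene of each library gave -0.91, -1.56 and -5.04. The CD38-negative library stayed the higher of each pair without it.

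**Figure D2:**
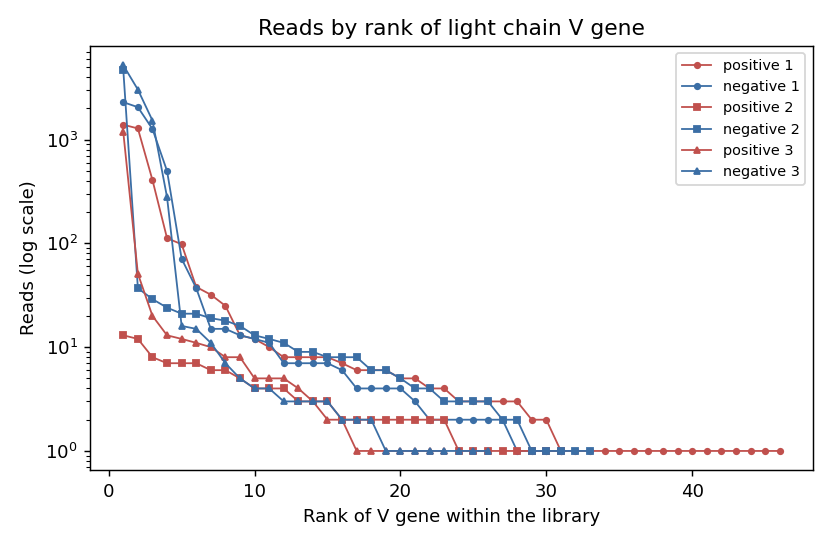
Reads of each light chain V gene (log scale) against its rank within the library; red is CD38-positive, blue CD38-negative, and circles, squares and triangles are pairs 1, 2 and 3. The curves of 5 libraries drop steeply over the first ranks from leading values between 1176 and 5195 reads, while CD38-positive replicate 2 starts at 13 reads.

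The number of V genes with at least 1 read did not follow the totals. It was 46, 31 and 23 in CD38-positive replicates 1, 2 and 3, and 31, 33 and 26 in their CD38-negative partners, or 33.3 ± 11.7 (SD, n = 3) against 30 ± 3.61 (SD, n = 3). The difference between populations was smaller than the spread between replicates. More reads reveal more genes, so the number expected in a draw of 116 reads, the smallest total, was computed for each library. It was 11.2, 31.0 and 9.01 in CD38-positive and 7.53, 6.98 and 4.93 in CD38-negative libraries. At equal reads the CD38-positive library had more V genes in each of the 3 pairs and the populations did not overlap. The library with the fewest V reads, CD38-positive replicate 2, was not thinned and had the highest value, 31.0. Where the leading genes hold most of the reads they also fill most of the draw, so this number reflects their share as well. No test was run on the difference. At a threshold of 10 reads, 11, 2 and 7 genes remained in the CD38-positive libraries and 11, 12 and 7 in the CD38-negative.

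Each library was led by a different V gene. In CD38-positive replicate 1 it was Igkv15-103, with 39.4% of the V reads (exact Clopper-Pearson 95% interval 37.8% to 41.1%). In CD38-positive replicate 2 it was Igkv8-30, with 13 of 116 reads or 11.2% (6.10% to 18.4%). In CD38-positive replicate 3 it was Igkv4-80, with 87.6% (85.7% to 89.3%). The CD38-negative libraries showed the same concentration in other genes. Igkv3-2 led replicate 1 with 36.1% (34.9% to 37.3%). Igkv19-93 led replicate 2 with 93.8% (93.1% to 94.5%), and Igkv12-46 led replicate 3 with 51.4% (50.4% to 52.4%). Only counting error enters these intervals, and the reads carry no molecular tag, so they are not independent molecules. The leading share averaged 46.1% ± 38.6 (SD, n = 3) for CD38-positive cells against 60.4% ± 29.9 (SD, n = 3), a difference smaller than the spread. Members have similar exonic lengths, with a median of 362 bases and a range of 338 to 501, and the leading gene was the same in every library when reads were divided by length.

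**Figure D3:**
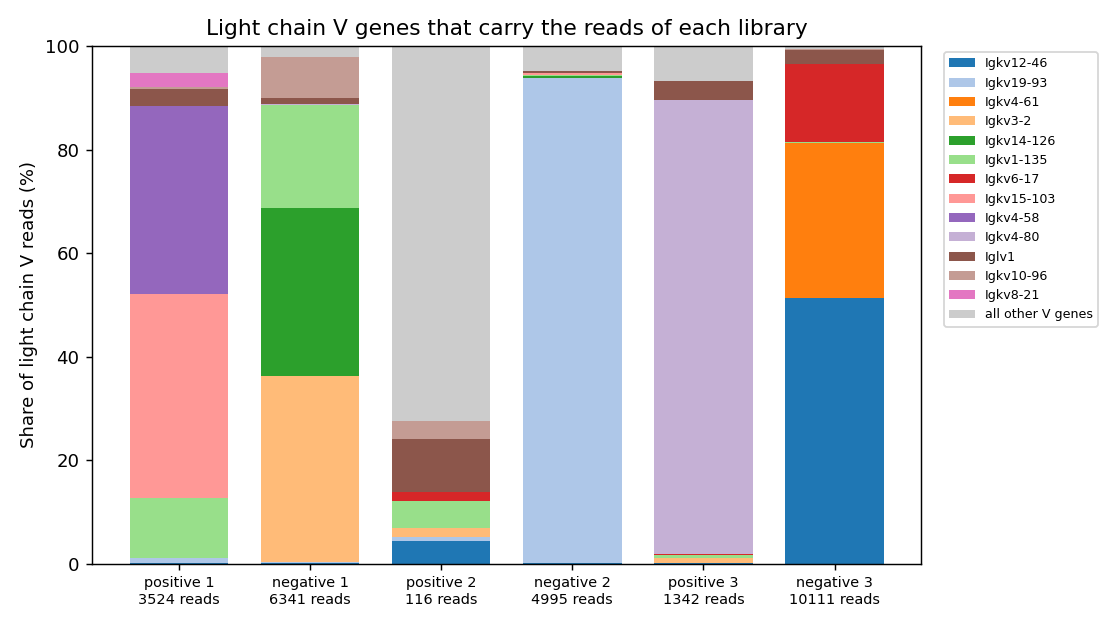
Share of light chain V reads (%) carried by each V gene in the 6 libraries, with the library's V read total under each bar; the 13 coloured genes are those with at least 98 reads in some library, and grey is all other V genes. A single gene fills 93.8% of CD38-negative replicate 2 and 87.6% of CD38-positive replicate 3, while most of CD38-positive replicate 2 is grey.

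The same concentration can be given as an effective number of V genes, the inverse of the summed squared shares, which is the number of equally used genes that would give the same evenness. It was 3.31, 18.3 and 1.30 in CD38-positive replicates 1, 2 and 3, and 3.56, 1.14 and 2.65 in CD38-negative replicates 1, 2 and 3. To reach 90% of the V reads took 4, 22 and 2 genes in the CD38-positive libraries and 4, 1 and 3 in the CD38-negative. Each of 5 libraries thus drew 90% of its light chain V reads from at most 4 V genes. Those values describe V genes and not cells: several cells can share a V gene, and no value in the files counts cells.

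The leading genes were almost private to 1 library. Reads are given below in the order of replicates 1, 2 and 3. Igkv12-46 had 3, 5 and 1 reads in CD38-positive and 15, 3 and 5195 in CD38-negative libraries. Igkv4-61 had 0 reads in each CD38-positive library and 0, 0 and 3026 in the CD38-negative. Igkv6-17 had 1, 2 and 1 reads against 1, 0 and 1524. These 3 genes, members of different subgroups, together made up 96.4% of the V reads of CD38-negative replicate 3 and had at most 15 reads elsewhere.

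Igkv19-93, the 1 member of its subgroup, had 38, 1 and 2 reads in CD38-positive and 2, 4686 and 0 in CD38-negative libraries. No other V gene of CD38-negative replicate 2 exceeded 37 reads. In CD38-negative replicate 1 the reads were divided over several genes. Igkv3-2 had 0, 2 and 13 reads in CD38-positive and 2288, 0 and 0 in CD38-negative libraries. Igkv14-126 had 0 in each CD38-positive library and 2049, 12 and 0 in the CD38-negative. Igkv10-96 had 13, 4 and 0 against 498, 0 and 3. Igkv14-126 is known as the light chain V gene that pairs with the heavy chain gene Ighv11-2 in B-1 cells whose antibody binds phosphatidylcholine. Ighv11-2 had 833 reads in this same library and at most 1 in any other.

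Among CD38-positive libraries, replicate 1 had a pair of leading genes. Igkv15-103 had 1389, 0 and 0 reads in CD38-positive and 0, 21 and 0 in CD38-negative libraries. Igkv4-58 had 1278, 0 and 0 reads, and 0 in each CD38-negative library. Both were thus high in 1 CD38-positive library and near or at 0 in the other libraries. Igkv4-80 had 0, 0 and 1176 reads in CD38-positive and 15, 0 and 0 in CD38-negative libraries. Igkv8-21 had 98, 0 and 0 reads against 0, 2 and 4. CD38-positive replicate 2 had no such gene: after Igkv8-30 came Iglv1 with 12 reads, and no other V gene had over 8. Igkv1-110, Igkv17-121 and Igkv9-120 had 7 each.

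Igkv1-135 was the exception among the abundant kappa genes, since it was high in both libraries of a pair. It had 407, 6 and 8 reads in CD38-positive and 1263, 11 and 16 in CD38-negative libraries, or 11.5% and 19.9% of the V reads of pair 1. Each of the 3 pairs had the lower level on the CD38-positive side, as did 11.3% of all genes tested. The paired log2 differences, with 0.5 CPM added, were -1.60, -0.41 and -0.65. The populations overlapped, since the library means of 8.38 CPM (SD 13.8, n = 3) and 25.6 CPM (SD 42.9, n = 3) rest on pair 1.

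Some members had low counts in all libraries. Igkv17-121 had 8, 7 and 3 reads in CD38-positive and 7, 8 and 3 in CD38-negative libraries. Iglv3 had 8, 6 and 20 reads against 4, 13 and 5. Reads in all 6 libraries were found for 5 members, which were these and Igkv12-46, Igkv1-135 and Iglv1. Of the 74 members with reads, 21 had them in exactly 1 library and 24 in 2. In CD38-positive libraries only there were 16, in CD38-negative only 12, and in both 46. With at least 10 reads in all and in 1 population only there were 8: Igkv4-61, Igkv14-126, Igkv2-137 and Igkv6-23 in CD38-negative, and Igkv4-58, Igkv1-99, Igkv9-129 and Igkv4-92 in CD38-positive libraries. Except for Igkv14-126 and Igkv6-23, each of the 8 had its reads in a single library. Igkv2-137 had 37 reads in CD38-negative replicate 1, and Igkv1-99, Igkv9-129 and Igkv4-92 had 12, 11 and 10 in 1 CD38-positive library each.

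The members of middle rank, which peaked at 10 or more but under 100 reads, were of both kinds: 7 of the 18 had over 90% of their reads in 1 library, against 9 of the 10 genes with 1000 or more reads. Igkv12-44 had 32 reads in CD38-positive replicate 1 and 1 in CD38-negative replicate 3. In CD38-negative replicate 2, Igkv16-104 had 24 reads, Igkv14-100 had 19 and Igkv8-19 had 18, against at most 5 in any other library. Others were read in several libraries without a single high one. Igkv1-110 had 6, 7 and 12 reads in CD38-positive and 0, 1 and 11 in CD38-negative libraries. Igkv1-117 had 6, 0 and 4 reads against 13, 8 and 0. Igkv6-15 had 10 and 12 reads in the libraries of pair 1 and 0 in the others.

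Few V reads were common to any 2 libraries, also within a pair. The share of V reads that 2 libraries had in common, summing the smaller of the 2 shares gene by gene, was 14.2% in pair 1, 4.59% in pair 2 and 3.26% in pair 3. Between libraries of the same population it ran from 0.857% to 11.8%. In pair 1, the libraries shared 20 detected V genes, which was 43.5% of those in the CD38-positive and 64.5% of those in the CD38-negative library. Pair 3 shared 9, or 39.1% and 34.6%.

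In edgeR's quasi-likelihood test with the pair as a block, 2 of all 14785 genes (0.0135%) had an adjusted p under 0.05, and 0.00676% were called lower in CD38-positive cells. Only 3 of the 103 members had enough reads in enough libraries to be tested, and 0 of them passed. DESeq2 with the same block called 0 as well, against 0.0744% of all genes, and so did edgeR with DESeq2 size factors, against 0.0473%. At an unadjusted p under 0.05 there was 1 member in edgeR, where 5.08% of all genes passed and 2.61% were lower in CD38-positive cells. It was Igkv1-135, with a log2 fold change of -1.38 (SE 0.32, unadjusted p = 0.000723, edgeR adjusted p = 0.534), and -1.61 without the replicate block (edgeR adjusted p = 0.994). Iglv1 had -0.91 (SE 0.53, edgeR adjusted p = 0.926), and 0.09 without pair 3. Igkv8-30 had 25, 13 and 0 reads in CD38-positive and 7, 37 and 0 in CD38-negative libraries, with a fold change of 0.06 (SE 0.82, edgeR adjusted p = 0.993) whose sign changed with the setting.

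Of the 10 genes with 1000 or more reads, 9 were thus outside the test, because each had its reads in too few libraries; Igkv1-135 was the one tested. When every gene with at least 1 read was tested, 11 of 74 members passed in edgeR, 3 higher and 8 lower in CD38-positive cells, against 0.302% of all genes. Of these 11, 10 had over 90% of their reads in a single library, the exception being Igkv1-135. Their calls set 1 library against the other 5 and give no replicated difference. A filter on a mean of at least 10 counts called 3 of 14 members, all of this kind, against 0.0882% of all genes. Without pair 2, 5 members passed, Igkv1-135 and 4 of this kind, against 0.274% of all genes. Without pair 3 there were 2, Igkv10-96 and Igkv14-126, against 0.0808%, and without pair 1 there were 0, against 0.0134%.

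Kappa V genes lie over 3148 kb of chromosome 6 upstream of Igkc (GRCm38 70726435 to 70726966, plus strand). The 10 genes with 1000 or more reads were spread over this span, from Igkv3-2 at 28.0 kb to Igkv1-135 at 3116.7 kb. Segments on the strand of Igkc join it by deletion of the DNA between them and those on the opposite strand by inversion. Of the 10 genes, 5 were on the plus and 5 on the minus strand, and of all 100 kappa members 38 and 62. The largest subgroup, Igkv4, with 26 members, had reads in 17 and held 3 of the 10 genes. Subgroups Igkv7, Igkv18 and Igkv20, with 1 member each, had no read.

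**Figure D4:**
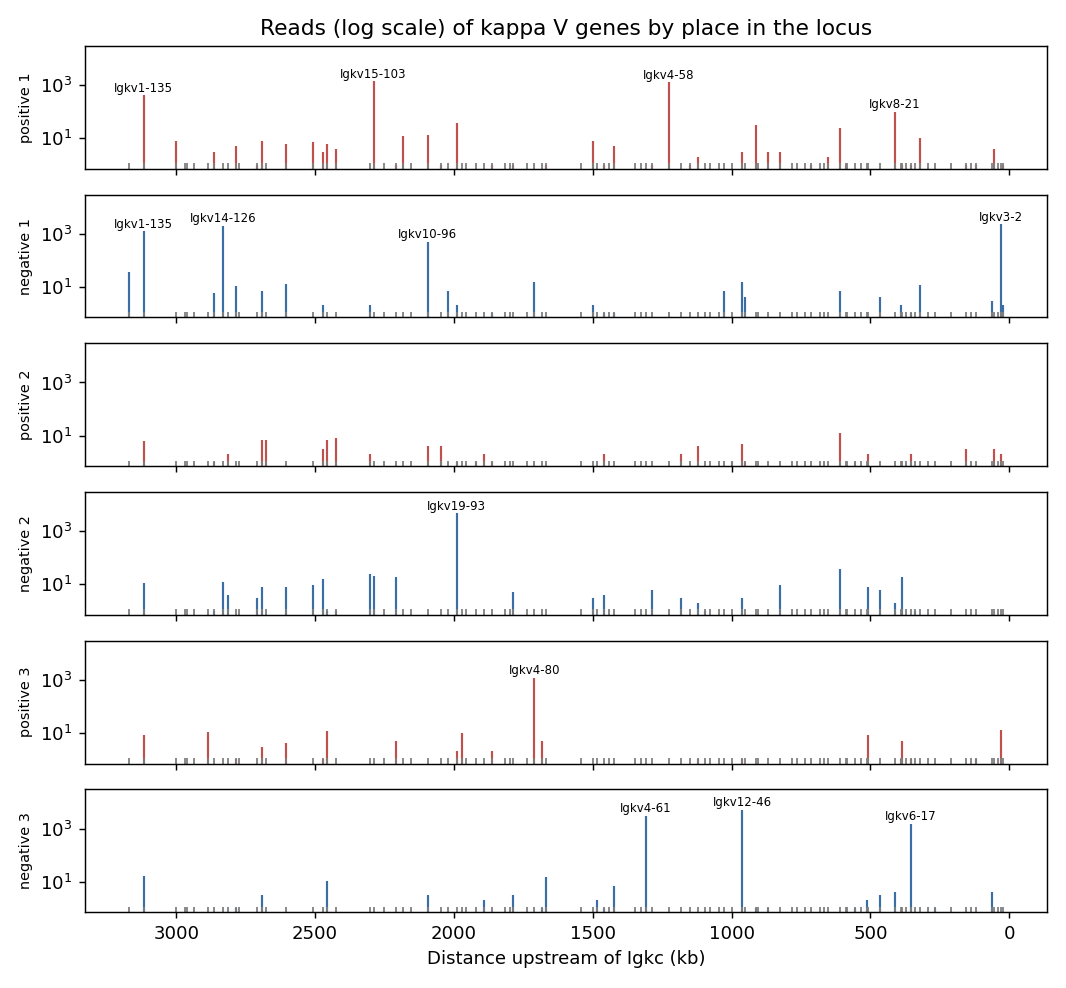
Reads of each kappa V gene (log scale) by its distance upstream of Igkc in kb, 1 panel per library, red CD38-positive and blue CD38-negative; grey ticks mark all 100 kappa members and names mark genes with at least 90 reads. High bars stand at different places of the locus in each library, from 28.0 kb to 3116.7 kb, and Igkv1-135 recurs in pair 1.

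Lambda V genes, on chromosome 16, were a minor part. Their summed level, unlike that of all members, did not differ one way in the pairs, with log2 differences of 0.68, -1.70 and -2.15. Their share of V reads was 3.58%, 16.4% and 5.29% in CD38-positive replicates 1, 2 and 3, and 1.25%, 1.26% and 2.81% in the CD38-negative. Iglv1 had 112, 12 and 51 reads in CD38-positive and 71, 21 and 278 in CD38-negative libraries. The higher lambda shares of the CD38-positive libraries stand beside their lower kappa totals. Iglv2 had 6, 1 and 0 reads against 4, 29 and 1. Iglv1 lies upstream of the constant regions Iglc3 and Iglc1 and pairs with them, and Iglc3 had 63, 11 and 13 reads in CD38-positive and 46, 50 and 385 in CD38-negative libraries. Both Iglv1 and Iglc3 thus had their highest count in CD38-negative replicate 3. The Iglc genes resemble each other, so their separate counts are uncertain.

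The constant region gave a second reading of the same transcripts. Igkc had 5572, 193 and 2220 reads in CD38-positive and 11491, 7175 and 17275 in CD38-negative libraries, without overlap between populations. The fitted log2 difference was -3.07 (SE 0.56, edgeR adjusted p = 0.125). Over the 9 alternative fits it ran from -4.12 to -2.08, and it passed the threshold in 4 of them, on leaving out each pair in turn and with no filter on low counts. Kappa V reads per Igkc read were 0.610, 0.503 and 0.573 in CD38-positive and 0.545, 0.687 and 0.569 in CD38-negative libraries. The ratio averaged 0.562 (SD 0.054, n = 3) against 0.60 (SD 0.076, n = 3), and it varied by less than 1.5 times over libraries whose V totals ran from 116 to 10111 reads. Per kilobase of exon, it lay between 0.724 and 1.01. Lambda V reads per Iglc read varied more, at 0.808, 0.396 and 1.01 in CD38-positive and 0.527, 0.384 and 0.539 in CD38-negative libraries, on totals of 19 to 284 lambda V reads. The 4 tested light chain constant genes were all fitted lower in CD38-positive cells, with 0 past the threshold, and Iglc1, Iglc2 and Iglc3 had log2 fold changes of -0.86, -1.21 and -2.14 (edgeR adjusted p = 0.926, 0.925 and 0.925).

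Heavy chain V genes, of which 113 were not pseudogenes, were concentrated in the same libraries for the most part. Reads summed to 1349, 208 and 223 in CD38-positive and 2885, 1628 and 7409 in CD38-negative libraries. The leading gene was Ighv7-1 with 68.4%, Ighv1-74 with 8.65% and Ighv1-71 with 27.8% in CD38-positive replicates 1, 2 and 3. It was Ighv11-2 with 28.9%, Ighv5-6 with 84.1% and Ighv6-3 with 81.9% in CD38-negative replicates 1, 2 and 3. No leading heavy V gene was shared between libraries either. The effective number of heavy V genes was 2.07, 29.9 and 9.25 in CD38-positive and 4.86, 1.41 and 1.43 in CD38-negative libraries. CD38-positive replicate 2 was again the most even, but CD38-positive replicate 3, where Igkv4-80 took 87.6% of light chain V reads, had no heavy V gene of like share.

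Other genes of antibody-producing cells were read in lists. Of 18 tested plasma cell genes, 0 passed the adjusted threshold in edgeR, against 0.0135% of all genes. At an unadjusted p under 0.05 there was 1 in the list, where 5.08% of all genes passed. That gene was Jchain, which joins IgA or IgM units into polymers, with 621, 3 and 1836 reads in CD38-positive and 5368, 3053 and 15346 in their partners. The fitted difference was -4.26 on the log2 scale (SE 0.71, edgeR adjusted p = 0.0701). Jchain passed in 4 of 9 alternative fits, all in edgeR. They were no filter on low counts, leaving out pair 2 or pair 3, and DESeq2 size factors (adjusted p = 0.0489). It did not pass in DESeq2 with the pair block (adjusted p = 0.678). Nor did it pass in edgeR without pair 1 (adjusted p = 0.112) or without the block (adjusted p = 0.994). Of 4 tested heavy chain constant genes, 1 passed, Igha, at -4.40 (SE 0.46, edgeR adjusted p = 0.00246). Without the replicate block Igha had -3.36 and did not pass (edgeR adjusted p = 0.994). It had 26, 9 and 1446 reads in CD38-positive and 2075, 178 and 11579 in CD38-negative libraries, so the populations overlapped. Ighm, the IgM heavy chain, had 8515, 3492 and 2970 reads in CD38-positive and 9748, 8331 and 11862 in CD38-negative libraries (log2 fold change -1.19, edgeR adjusted p = 0.695). Ighd went the other way, with 84, 60 and 73 reads in CD38-positive libraries against 60, 55 and 11 in their partners. Among the 4 tested heavy chain constant genes it was the 1 fitted higher in CD38-positive cells, by 0.95 on the log2 scale (edgeR adjusted p = 0.926), and 3 were fitted lower. Ighg3 had 0 reads in each CD38-positive library and 2236, 0 and 20 in the CD38-negative. CD38-positive replicate 2, with 116 V reads, thus had 3 Jchain reads but 3492 Ighm reads. Xbp1 and Hsp90b1, which serve protein secretion in many cell types, had log2 fold changes of 0.17 and 0.31 (edgeR adjusted p = 0.943 and 0.930). The plasma cell list had a median of -0.04, and all genes tested had a median of 0.00.

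Of 20 mature B cell genes tested, 0 passed in edgeR, 11 were fitted higher and 9 lower in CD38-positive cells, and the median log2 fold change was 0.07. Their summed level ranged from 200 to 371 CPM, with 0 of the 20 at 0 in any library. It was 371 against 288 CPM in pair 1, 296 against 320 in pair 2 and 200 against 268 in pair 3, so the CD38-positive library was the lower in pairs 2 and 3 only. Cd72, a B cell surface receptor, had lower counts in the CD38-positive library of all 3 pairs without overlap, at a fitted log2 difference of -0.44 (edgeR adjusted p = 0.926). Ly6d, a marker of B cell commitment, had 330, 163 and 80 reads against 261, 348 and 242, with -0.81 (unadjusted p = 0.0359, edgeR adjusted p = 0.926). Cd79a and Cd79b, the signalling chains of the B cell receptor, had log2 fold changes of 0.10 and -0.11. CD38-positive replicate 2, with the fewest V reads, had 296 CPM of the summed B cell genes, inside the range of the other libraries.

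Of 12 B cell precursor genes, 0 passed in edgeR, and the summed level ranged from 193 to 370 CPM. Dntt, which adds bases at V gene joints, had 0.42 (edgeR adjusted p = 0.926), and Igll1, part of the surrogate light chain made before a light chain is joined, had -0.15. Of 14 genes for factors that act on light chain genes, 0 passed in edgeR, with 7 fitted higher and 7 lower. Irf8 had the smallest unadjusted p among these, 0.00151, at 0.87 (edgeR adjusted p = 0.695), while Spi1, Ikzf1 and Nfkb1 had 0.06, -0.25 and -0.09. The part of plasma cells and of other B lineage cells in the V reads was not tested.

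**Figure D5:**
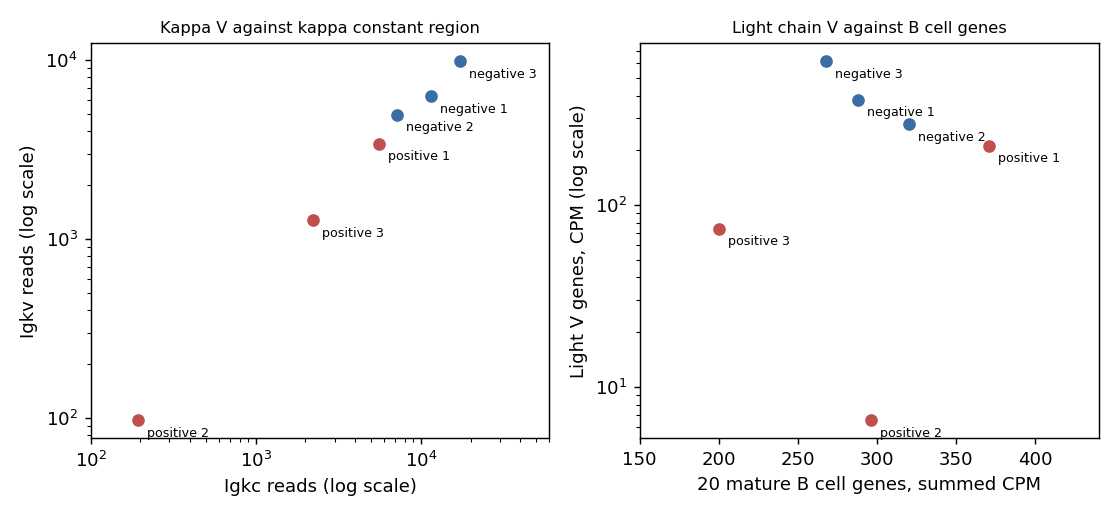
Left, kappa V reads against Igkc reads, both on log scales; right, summed light chain V CPM (log scale) against the summed CPM of 20 mature B cell genes; each point is a library, red CD38-positive and blue CD38-negative. Kappa V and Igkc rise together over the 6 libraries, while the B cell genes stay between 200 and 371 CPM over V levels from 6.55 to 617 CPM.

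Total gene counts ranged from 16771180 to 18558610 per library, so that 3 counts correspond to 0.165 to 0.183 CPM. Genes that mark HSCs were present in every library, with 0 of 12 at 0 and a summed level of 859 to 2384 CPM. So were 14 granulocyte genes at 75843 to 173090 CPM and 10 erythroid genes at 2358 to 8426 CPM. The 14 T and NK cell genes summed to 154 to 355 CPM, with Cd3e at 0 in 4 libraries and Trac at 0 in CD38-positive replicate 3. Most of this sum was Nkg7 alone, at 118 to 313 CPM. The lists of these other cell types had 0 genes past the threshold in edgeR, and their part in the V reads was not tested.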

How the data were processed

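RNA from HSCs of 3 CD38-positive and 3 CD38-negative pools was sequenced. The authors deposited raw read counts per Ensembl gene, 1 table per library with no header. Per the submitters' processing notes, cutadapt, STAR and HTSeq 0.6.1p1 were used with GRCm38 (mm10); the strand setting, the treatment of reads mapping to several genes and the annotation release are not given in the sources used here. Such reads could move counts between V genes.

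Symbols were matched for 49326 of 49585 identifiers, and biotypes, coordinates, lengths and sequences came from GENCODE M21 (GRCm38). Genes passing filterByExpr (14785) were tested in R 4.3.3 with edgeR 4.0.16 (TMM, quasi-likelihood F-test, pair plus population) and adjusted by Benjamini-Hochberg at 0.05. Fold changes below 0 on the log2 scale mean lower in CD38-positive cells. CPM used TMM-adjusted totals; totals ranged from 16771180 to 18558610. The pairs come from the design text, and deviations of paired libraries from population means correlated at 0.37, 0.12 and 0.30. No 2 libraries of a population were alike within counting error (chi-square over its degrees of freedom at least 51.5). On simulated counts for this comparison (14493 genes), 61 of 100 genes changed 2-fold and 97 of 100 changed 4-fold were called, with 8 false calls. The changed genes were drawn only from tested genes with higher mean counts. These rates therefore do not cover members with few reads or with their reads in a single library. Alternatives were no block, DESeq2 1.42.0, other scalings, filters and member sets, and leaving out each pair.

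Named genes were members ranked 1 to 5 in any library, tested members and members of at least 10 reads seen in 1 population only. Light chain constant genes were also named and, per B lineage list, called genes and the 4 with most reads. Arpp21, Cd72, Ly6d, Nkg7, Trac, the heavy V genes and members of middle rank, where outside this rule, were chosen after their values were seen. The members and lists were chosen with earlier results of these data known.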

Additional observations from a re-analysis of the deposited data

Results flagged for a closer look

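Outside the members, the 60 annotated light chain V pseudogenes had 4 reads in CD38-negative replicate 1, spread over 2 of them. They had 4 reads in CD38-negative replicate 3, spread over 3. These sums were flagged for exceeding 3 counts, a bound that holds for a single gene and so does not apply to a sum. The other libraries had between 0 and 3. Including them changed neither the order of the totals nor the leading gene of any library.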

How the results depend on the processing

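The number of V genes called, 0 of 3 tested, was 0 without the replicate block, with DESeq2, with DESeq2 size factors and with unscaled totals, but 11 with no filter and 3 at a mean of at least 10 counts; leaving out a pair gave 0 to 5. More members were tested in these fits (74, 14 and 5 to 7). The mean paired difference of the summed level, -3.10, lay between -3.20 and -2.12 under the scalings, the pseudocount, the ratio of means and the sets with pseudogenes, with Igkv alone or without each leading gene, and between -4.23 and -1.95 when a pair was left out; for genes ranked 6 and below (added after seeing the data) it was -0.40, and for the 3 Iglv genes alone -1.06, with pair 1 at 0.68. The mean number of V genes with reads, 33.3 in CD38-positive and 30 in CD38-negative libraries, was 19 and 20.7 at 3 reads, 6.67 and 10 at 10 reads, and 17.1 and 6.48 at 116 reads, so its order depended on the choice; it was 27.0 to 38.5 and 28.5 to 32.0 without a pair. Leading shares ran from 25.3% to 63.5% and from 43.7% to 72.6% without a pair. Kappa V per Igkc became 0.824 and 0.861 per exonic length (added after seeing the data), and 0.538 to 0.591 and 0.557 to 0.628 without a pair.

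Of 233 alternative fold changes of 26 named genes, 199 kept their direction and side of the threshold, 14 became stronger, 2 weaker (Igha, with no block and unscaled totals) and 18 changed sign; the cause was not tested. Signs changed with no replicate block for Igkv8-30 (-0.17) and Cd37 (0.0002), and with unscaled totals for Igkv8-30 (-0.023). Leaving out each pair in turn gave both signs for 12 genes: Blnk (-0.15 to 0.69), Cd37 (-0.16 to 0.15), Cd79a (-0.40 to 0.37), Cd79b (-0.38 to 0.035), Cd93 (-0.20 to 0.089), Flt3 (-0.11 to 0.31), Igkv8-30 (-1.41 to 0.041), Igll1 (-0.61 to 0.13), Iglv1 (-1.89 to 0.094), Nfkb1 (-0.19 to 0.0068), Sec11c (-0.013 to 0.23) and Spi1 (-0.30 to 0.30). The adjusted p-value of Igkv1-135 ran from 0.00373 (without pair 2) to 0.994 in edgeR. Scalings moved the median of all genes by under 0.1. At this depth 3 counts, the bound that a count of 0 allows for a single gene, were 0.183 CPM or less. Larger differences were not always detectable, because the spread between replicates also limits the test.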

Other observations

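Joining segments, at which V genes end after rearrangement, had almost no counts of their own: the Igkj genes had 0 to 2 reads in each library beside 193 to 17275 Igkc reads. Igkv14-126, with 2061 reads in all, is a V gene in GENCODE M21 and the 1 member that RefSeq (GRCm38.p6) lists as a V segment pseudogene, so a member list built on RefSeq would lose a leading gene of CD38-negative replicate 1. In that library 3 heavy chain V genes besides Ighv11-2 also had high counts, namely Ighv1-5 with 679 reads, Ighv1-26 with 532 and Ighv5-17 with 497. Ighv1-5, like Igkv1-135, recurred in the CD38-positive library of the same pair, with 150 reads, and had at most 1 read in the other libraries. Ighv1-26 had 1187 reads in CD38-negative replicate 3.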
